A study of Mus musculus with 20 samples.

Results

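Acy3 and Gstp2 lie close together near the start of chromosome 19 in the mouse, and this account describes them with Unc93b1, Gstp1 and LOC100861918, which lie beside them. The 5 loci were those of the deposited count table that carry 1 of these symbols and lie between 3.9 and 4.3 Mb of chromosome 19 (mm10). They were 5 of 37051 loci in the table, 26475 of which had a symbol and 17206 of which were abundant enough to test, among them all 5. The symbols had been picked because several of these loci differed between the 2 mouse lines in these same libraries. Their line differences are therefore given as a description, without a test.

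RNA of the whole striatum was sequenced from 20 male mice at about 6 months of age, with 5 mice in each of 4 groups and 1 library per mouse. Mice of a line selected for cage overactivity and of a control line, all labelled as Collaborative Cross, a population bred from several inbred founder strains, were injected with saline or with d-amphetamine, which releases dopamine, at a dose of 25 mg/kg. The striatum was collected 2 hours after the injection. The groups were control line with saline, overactive line with saline, control line with amphetamine and overactive line with amphetamine. Each phenotype is represented by 1 line, so selection for activity and any other difference between the lines cannot be told apart. The labels name no engineered allele, and the alleles that the lines carry at this place are not given in the sources used here. Library totals ran from 31393788 to 53773028 counts. Levels are CPM, counts relative to library size after TMM scaling. The striatal genes Drd1a (179 to 303 CPM), Drd2 (140 to 233), Ppp1r1b (892 to 1698) and Adora2a (177 to 306) were abundant in all 20 libraries. In whole tissue, fewer cells of a type and less RNA per cell cannot be told apart.

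Gstp1 and Gstp2 encode pi-class glutathione S-transferases, enzymes that join glutathione to reactive compounds so that they can be exported. Acy3 encodes aminoacylase 3, which removes acetyl groups from mercapturic acids, the late products of the same glutathione route, and from acetylated aromatic amino acids. Unc93b1 encodes a membrane protein that carries nucleic acid-sensing Toll-like receptors from the endoplasmic reticulum to endosomes, and in brain it is known chiefly from microglia. LOC100861918 is a locus without a known product. It overlaps a long noncoding RNA of the GENCODE M21 annotation (AC109138.11, 4201779 to 4203240, plus strand), classed there as transcribed from a bidirectional promoter.

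From the start of the chromosome, the loci were Unc93b1 (XLOC_016126, 3935185 to 3949340, plus strand), Acy3 (XLOC_016129, 3984398 to 3990218, plus strand), Gstp1 (XLOC_016576, 4035410 to 4038248, minus strand), Gstp2 (XLOC_016577, 4040287 to 4042221, minus strand) and LOC100861918 (XLOC_016141, 4201727 to 4203721). Strands are those of the annotation. The annotated gene spans are 3935186 to 3949340 for Unc93b1, 3986570 to 3990007 for Acy3, 4035407 to 4037985 for Gstp1 and 4040285 to 4046023 for Gstp2. The first 4 are protein-coding, and each locus spans exons, introns and UTRs of its gene. The Gstp2 locus ends at 4042221 and leaves out the rest of the annotated span, up to 4046023. The Acy3 locus starts at 3984398, before the annotated start at 3986570, and so also covers sequence outside the annotated gene. That of Gstp1 ends at 4038248, past the annotated 4037985.

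The table keeps Gstp1 and Gstp2 as separate loci, although their messenger RNAs are nearly the same. Their coding sequences, both 630 bases long in GENCODE M21 (GRCm38), differed at 12 bases (98.1% identity), and the longest identical run was 300 bases. The first 120 coding bases are shown because 6 of the 12 differing bases, in capitals, fall there. Reads came in pairs. Within this stretch, a read without its mate can be assigned to Gstp1 or Gstp2 only if it covers a base in capitals:
Gstp1: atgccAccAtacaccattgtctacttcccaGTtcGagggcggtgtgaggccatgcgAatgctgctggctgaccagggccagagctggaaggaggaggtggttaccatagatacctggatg
Gstp2: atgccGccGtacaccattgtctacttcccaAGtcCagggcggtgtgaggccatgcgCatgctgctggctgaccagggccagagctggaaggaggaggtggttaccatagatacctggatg

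Of all 50-base windows of the Gstp2 transcript, 72.6% also occurred exactly in Gstp1 or in the pseudogene Gstp-ps, and of those of Gstp1 62.3% occurred in Gstp2 or Gstp-ps. At 100 bases these shares were 63.5% and 52.8%. For Acy3 8.72% of 50-base windows occurred in another gene (the pseudogene Gm48931), and for Unc93b1 and for the third pi-class gene, Gstp3, none did. How the authors assigned reads that fit several genes is not given in the sources used here, so the split between Gstp1 and Gstp2 is uncertain. The line differences and the amphetamine contrast of Gstp2 are also given for the sum of both genes, and its level as a share of that sum. The correlations and counts of non-overlapping loci below rest on the Gstp2 locus alone.

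The promoters of Gstp1, Gstp2 and Acy3 are shown because these loci lie near each other and differed between the lines by unequal amounts. RefSeq held promoter windows for 3 of the 5 loci, each 300 bases around a RefSeq start site (GRCm38.p6). The Gstp2 window covers 4042221, the upper end of its locus. It lies inside the annotated Gstp2 span, which reaches 4046023. Capitals mark matches to the motifs searched on both strands. The GC box was searched as GGGCGG and the AP-1 site as TGAGTCA. The core of the antioxidant response element, to which the stress-responsive factor NRF2 binds, was searched as TGACNNNGC and as TGAGNNNGC. The TATA box was searched as TATAAA and a variant of it as TATAAG. The windows are Acy3 at chr19:3986320-3986619 (plus strand), Gstp1 at chr19:4037863-4038162 (minus strand) and Gstp2 at chr19:4042172-4042471 (minus strand):
Acy3: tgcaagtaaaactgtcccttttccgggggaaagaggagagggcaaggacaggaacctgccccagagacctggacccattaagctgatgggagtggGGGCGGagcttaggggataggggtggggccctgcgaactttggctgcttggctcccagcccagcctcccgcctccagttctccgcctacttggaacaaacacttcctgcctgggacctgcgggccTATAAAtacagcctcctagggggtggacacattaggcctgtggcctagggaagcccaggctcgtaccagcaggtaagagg
Gstp1: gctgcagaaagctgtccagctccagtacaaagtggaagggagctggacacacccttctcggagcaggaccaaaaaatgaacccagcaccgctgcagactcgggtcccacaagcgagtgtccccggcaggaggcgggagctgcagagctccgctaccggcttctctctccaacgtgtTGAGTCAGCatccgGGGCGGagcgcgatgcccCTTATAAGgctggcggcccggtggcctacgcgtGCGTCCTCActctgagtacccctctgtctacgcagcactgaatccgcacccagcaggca
Gstp2: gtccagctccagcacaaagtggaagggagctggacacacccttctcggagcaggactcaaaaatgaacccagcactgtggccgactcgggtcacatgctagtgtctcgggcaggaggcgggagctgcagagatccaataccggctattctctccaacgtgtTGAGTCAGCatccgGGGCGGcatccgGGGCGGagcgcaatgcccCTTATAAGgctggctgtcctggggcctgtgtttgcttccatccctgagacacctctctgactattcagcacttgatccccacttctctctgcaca

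The Gstp1 and Gstp2 windows were identical at 246 of 319 alignment columns (77.1%), against 50.3% for Acy3 and Gstp2. Both Gstp windows held TGAGTCA, a motif found in 5.20% of 32851 RefSeq promoters. It started at base -74 of Gstp1 and -89 of Gstp2, counted from the RefSeq start site. That match is part of a TGAGNNNGC match in both genes, and Gstp1 held another TGAGNNNGC at base -9 on the opposite strand (17.7% of promoters hold this motif). TGACNNNGC (12.4% of promoters) was in none of the 3 windows. GGGCGG, in 35.7% of promoters, occurred 1 time in Acy3, 1 time in Gstp1 and 2 times in Gstp2. TATAAA (13.6%) occurred in Acy3 at base -30, and TATAAG (7.43%) in both Gstp windows on both strands, where the matches overlap. These are matches of letters in the reference sequence, and the lines may carry other alleles.

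One library stood apart from its group at this place, as seen after the values of both lines were known. Overactive amphetamine library 1 measured 0.143 CPM of Gstp2, 1.41 of Acy3, 10.3 of Unc93b1 and 0.860 of LOC100861918, all within the range of the control line libraries. The other 9 overactive libraries lay above all 10 control line libraries for Gstp2, Acy3 and Unc93b1. For Gstp1 this library (57.7 CPM) lay among the other overactive ones and also inside the control line range (32.0 to 59.9 CPM). Of the 191 loci that differed between the lines in saline anywhere in the genome, it was nearer the control amphetamine mean than the overactive saline mean at 104, against 30, 40, 79 and 73 for overactive amphetamine libraries 2 to 5. The control mean has the treatment of these libraries and the overactive mean does not. The loci were also called with that overactive mean, so the counts are only compared between these libraries. On chromosome 19 the corresponding counts were 10 of 12 loci, against 1, 2, 1 and 3. These 12 include 4 loci of the window, where it was seen to overlap the control line. On chromosome 19 outside the window the counts were 6 of 8 loci, against 1, 2, 1 and 3. On other chromosomes they were 94 of 179, against 29, 38, 78 and 70. The labels place it in the overactive amphetamine group, and it is kept there, with values under amphetamine also given without it.

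Gstp2 was nearly silent in the control line and expressed at a low level in the overactive line. In saline the control libraries 1 to 5 measured 0.0795, 0.0845, 0.149, 0.0893 and 0.137 CPM, from 3, 3, 7, 4 and 6 counts. The overactive saline libraries measured 2.43, 0.896, 1.99, 1.38 and 1.42 CPM, from 94, 36, 86, 48 and 62 counts. The groups did not overlap, and the lowest overactive library held 36 counts against 7 in the highest control library. Group means were 0.108 ± 0.0327 and 1.62 ± 0.595 CPM (SD, n = 5), a log2 difference of 3.85 (SE 0.45), or 14.5-fold.

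Under amphetamine the control libraries measured 0.150, 0.160, 0.261, 0.101 and 0.144 CPM of Gstp2, and the overactive libraries 0.143, 1.0, 1.13, 1.11 and 0.857 CPM. Overactive libraries 2 to 5 all lay above the control line, whereas library 1 with 7 counts lay inside it. Means were 0.163 ± 0.0593 and 0.849 ± 0.410 CPM (SD, n = 5), a log2 difference of 2.37 (SE 0.44). Without library 1 the overactive mean was 1.03 ± 0.127 CPM (n = 4) and the log2 difference 2.64 (SE 0.30), a 6.25-fold difference.

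Acy3 was higher in the overactive line by a smaller factor and at a higher level. The control saline libraries measured 1.19, 1.24, 1.13, 1.14 and 1.28 CPM, and the overactive saline libraries 5.22, 2.11, 4.27, 2.95 and 3.61 CPM. The control libraries lay close together, while the overactive ones spread widely and stayed above them. Means were 1.20 ± 0.0637 and 3.63 ± 1.19 CPM (SD, n = 5), and the log2 difference was 1.60 (SE 0.26), or 3.04-fold. Under amphetamine the control libraries measured 1.10, 1.502, 1.28, 1.89 and 1.61 CPM and the overactive ones 1.41, 3.85, 3.99, 2.94 and 3.22 CPM. Libraries 2 to 5 of the overactive line again lay above every control library. The log2 difference there was 1.06 (SE 0.25) with means of 1.47 ± 0.303 and 3.08 ± 1.03 CPM (SD, n = 5). It was 1.24 (SE 0.21) without library 1, where the overactive mean was 3.50 ± 0.500 CPM (n = 4).

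Unc93b1, the receptor-trafficking gene, measured 10.7, 8.25, 12.1, 7.17 and 14.4 CPM in the control saline libraries and 24.5, 18.1, 26.7, 18.0 and 20.4 CPM in the overactive saline libraries. The groups did not overlap. Means were 10.5 ± 2.92 and 21.5 ± 3.93 CPM (SD, n = 5), a log2 difference of 1.03 (SE 0.19), or 2.04-fold. Under amphetamine the control libraries lay close together at 10.8, 9.40, 10.4, 10.1 and 9.38 CPM, and the overactive libraries measured 10.3, 17.6, 21.8, 18.1 and 16.6 CPM. The log2 difference was 0.75 (SE 0.19), with means of 10.0 ± 0.630 and 16.9 ± 4.17 CPM (SD, n = 5). Without library 1 it was 0.89 (SE 0.17), with an overactive mean of 18.5 ± 2.29 CPM (n = 4).

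LOC100861918, the noncoding locus at the far end of the window, measured 1.14, 1.07, 0.939, 0.648 and 1.21 CPM in the control saline libraries and 2.35, 1.69, 1.43, 1.38 and 1.80 CPM in the overactive saline libraries. These groups did not overlap either, with means of 1.001 ± 0.222 and 1.73 ± 0.390 CPM (SD, n = 5) and a log2 difference of 0.79 (SE 0.22). Under amphetamine the control libraries measured 0.999, 0.767, 0.754, 0.930 and 0.912 CPM and the overactive ones 0.860, 1.53, 1.92, 1.85 and 1.18 CPM. The log2 difference was 0.75 (SE 0.22), and 0.89 (SE 0.21) without library 1.

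Gstp1, the abundant pi-class gene, was the locus of the 5 whose lines overlapped in both treatments, with and without overactive amphetamine library 1. The control saline libraries measured 42.3, 46.3, 54.3, 35.4 and 59.9 CPM and the overactive saline ones 60.6, 52.7, 52.8, 59.0 and 60.9 CPM. Under amphetamine the control line measured 51.9, 53.2, 41.9, 43.2 and 32.0 CPM and the overactive line 57.7, 60.8, 55.4, 50.4 and 47.3 CPM. Control line libraries reached down to 32.0 CPM while no overactive library was under 47.3 CPM, yet the highest libraries of both lines were close, at 59.9 and 60.9 CPM. The log2 difference was 0.26 (SE 0.13) in saline, with means of 47.6 ± 9.71 and 57.2 ± 4.12 CPM, and 0.29 (SE 0.13) under amphetamine, with means of 44.5 ± 8.60 and 54.3 ± 5.46 CPM (SD, n = 5).

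**Figure D1:**
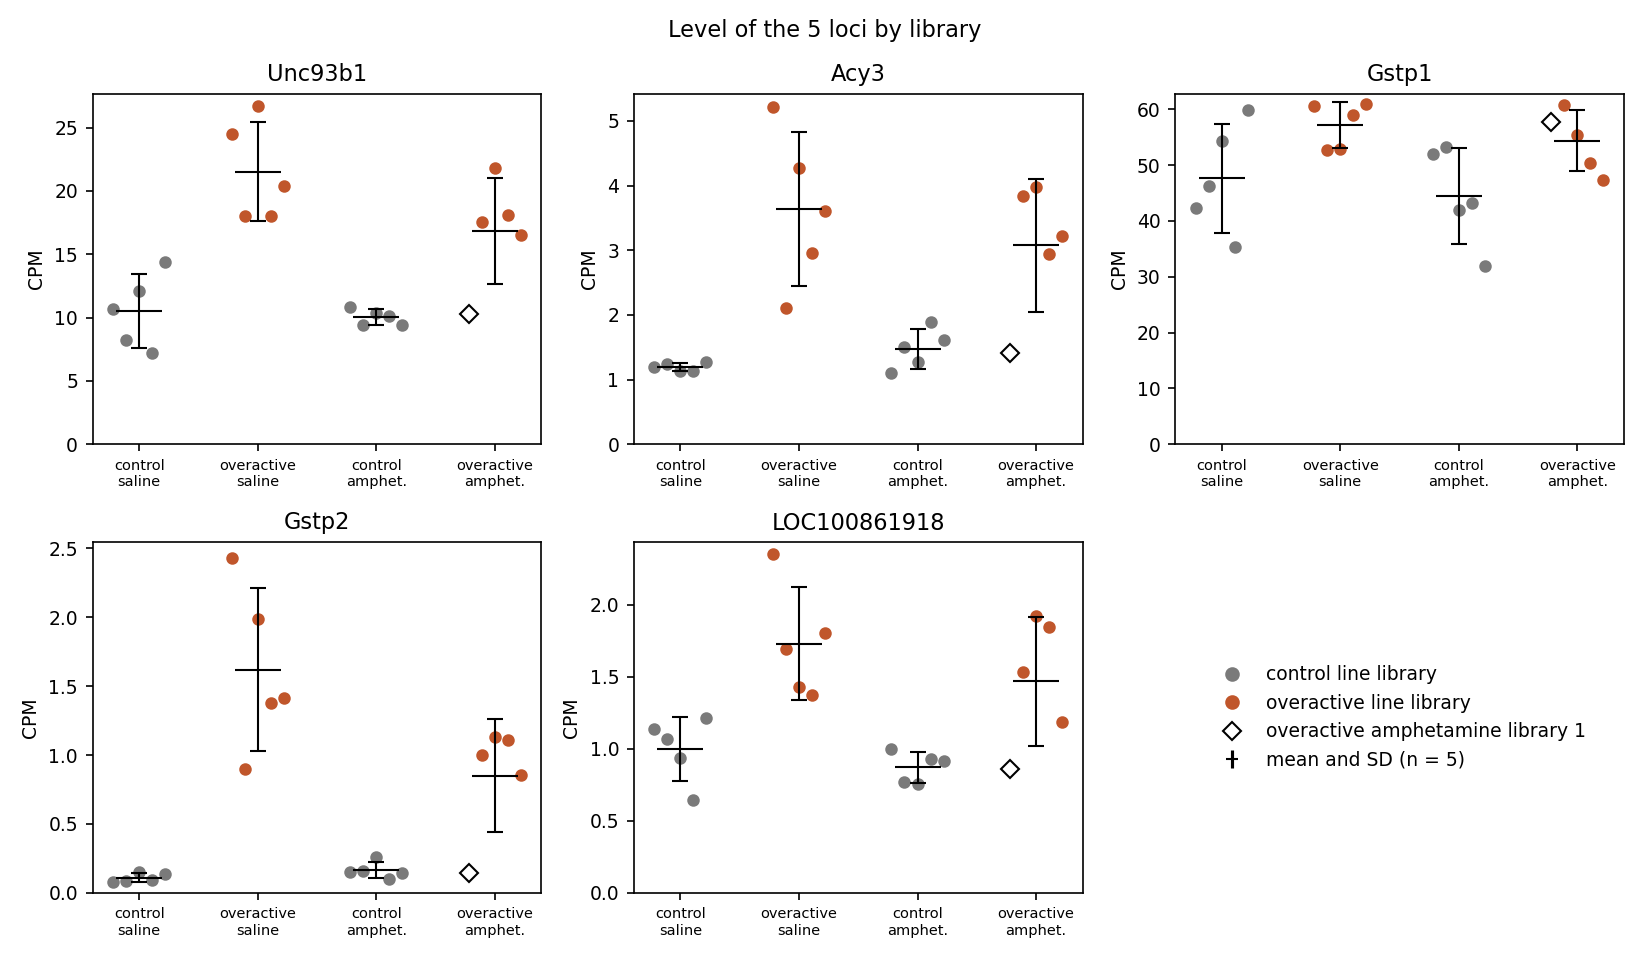
Level of the 5 loci in each of the 20 libraries, in CPM on linear axes that start at 0, with the 4 groups along the horizontal axis. Points are libraries, bars are the mean and SD (n = 5), and the open diamond is overactive amphetamine library 1. That library lies among the control line libraries for Unc93b1, Acy3, Gstp2 and LOC100861918, and inside the ranges of both lines for Gstp1.

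By the threshold used for all loci, an edgeR quasi-likelihood adjusted p under 0.05, 3 of the 5 loci (Acy3, Unc93b1 and Gstp2) were called higher in saline, where 0.639% of the 17206 loci were called higher and 0.471% lower. Under amphetamine 1 of the 5, Gstp2, was called higher, against 0.221% of loci called higher and 0.232% lower. Because the loci were picked on these contrasts, nothing is read from these counts. In saline 4 of the 5 had every overactive library above every control library, which 2.36% of all loci did. Under amphetamine none did with all libraries (1.57% of all loci), and 4 did without library 1 (2.50% of all loci). The median line difference over all 17206 loci was -0.0003 on the log2 scale in saline and 0.0031 under amphetamine.

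The loci with lower levels had the larger line differences, apart from the places of Unc93b1 and LOC100861918. Per kilobase of annotated exon, Gstp1 had the highest mean level in every group, at 30.8 CPM per kb in control saline and 37.0 in overactive saline. Unc93b1 came next with 3.47 and 7.10, then LOC100861918 (by the exons of AC109138.11) with 1.20 and 2.07, and Acy3 with 0.585 and 1.78. Gstp2 was lowest with 0.0970 and 1.46. In overactive saline the means of neighbours in this order among LOC100861918, Acy3 and Gstp2 differed by less than the spread of the libraries.

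The Gstp2 share of the counts of both pi-class genes does not depend on library scaling. It was 0.225% ± 0.0400 in control saline and 2.74% ± 0.949 in overactive saline libraries, and 0.377% ± 0.157 and 1.56% ± 0.763 under amphetamine (SD, n = 5). The control saline libraries ran from 0.182% to 0.275% and the overactive saline libraries from 1.67% to 3.85%. Overactive amphetamine library 1 had a share of 0.248% (95% Wilson interval 0.120% to 0.511%), against 1.62% to 2.16% in libraries 2 to 5. The interval covers counting error only, as reads without molecular identifiers are not independent molecules. When the counts of both genes were summed, the log2 line difference was 0.30 in saline and 0.31 under amphetamine, since Gstp1 makes up most of the sum.

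**Figure D2:**
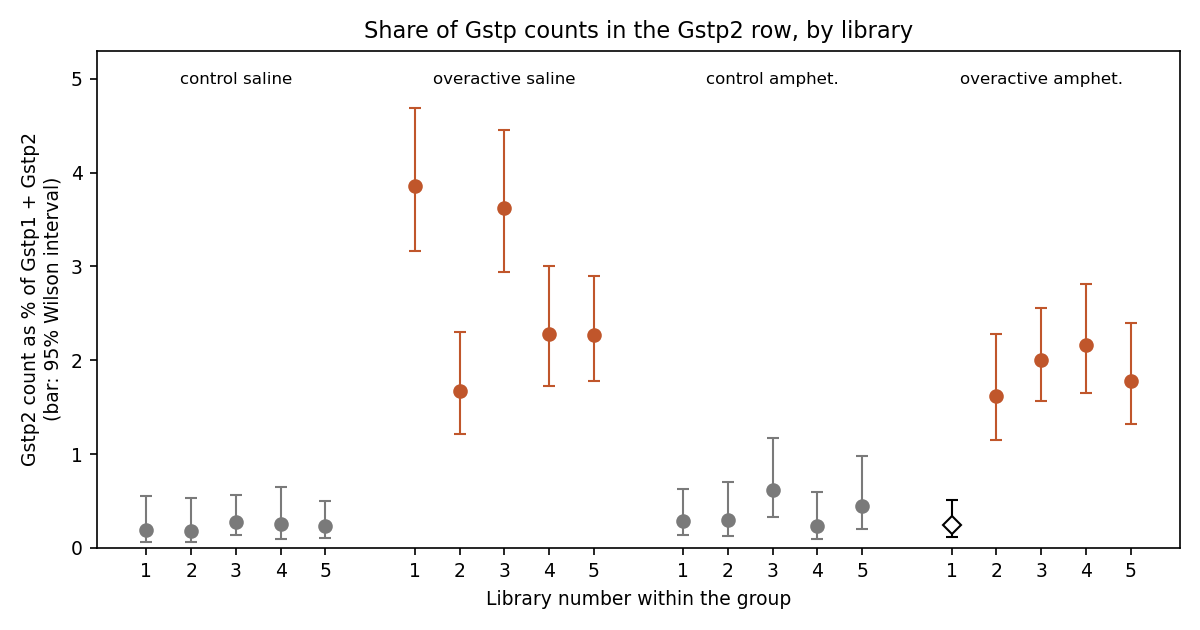
Gstp2 counts as a percentage of Gstp1 plus Gstp2 counts (vertical axis, from 0) in each library, numbered within its group along the horizontal axis. Bars are 95% Wilson intervals for counting error, and the overactive libraries lie between 1.62% and 3.85% apart from amphetamine library 1 at 0.248% (open diamond).

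Amphetamine against saline over both lines was tested, because this contrast did not enter the choice of the loci. None of the 5 passed with edgeR. The log2 changes were 0.03 for Acy3 (SE 0.18, edgeR adjusted p = 0.968), -0.21 for Unc93b1 (SE 0.13, adjusted p = 0.571) and -0.09 for Gstp1 (SE 0.09, adjusted p = 0.790). Gstp2 had -0.19 (SE 0.33, edgeR adjusted p = 0.879) and LOC100861918 -0.22 (SE 0.16, adjusted p = 0.651). The 95% intervals of the fold change were 0.805 to 1.30 for Acy3, 0.722 to 1.03 for Unc93b1, 0.828 to 1.07 for Gstp1, 0.562 to 1.37 for Gstp2 and 0.695 to 1.07 for LOC100861918. For the summed counts of Gstp1 and Gstp2 the log2 change was -0.096 (edgeR adjusted p = 0.764). A change as large as the saline line difference of Gstp2, Acy3 or Unc93b1 lay outside the interval of the same gene. Across the genome edgeR called 0 of 17206 loci in this contrast (0.0%), with 1895 at an unadjusted p under 0.05, while DESeq2 called 178 and limma-voom 0.

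The responses within each line share libraries with the contrasts on which the loci were picked, so they are given without a test. Gstp2 differed by 0.55 (SE 0.51) on the log2 scale between amphetamine and saline in the control line and by -0.93 (SE 0.37) in the overactive line. Without overactive amphetamine library 1 the overactive value was -0.66 (SE 0.27). The difference between the lines in response was -1.48 (SE 0.63), or -1.21 (SE 0.44) without that library, an alternative added after the data were seen. The Gstp2 level of overactive amphetamine libraries 2 to 5 (0.857 to 1.13 CPM) lay inside the range of the overactive saline libraries (0.896 to 2.43 CPM) apart from its lowest value. For Acy3 the within-line values were 0.30 (SE 0.26) and -0.24 (SE 0.24), and for Unc93b1 -0.07 (SE 0.19) and -0.35 (SE 0.18).

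Gstp2, Acy3 and Unc93b1 varied together over the libraries of the overactive line. In saline, libraries 1 and 3 were the 2 highest of their group for all 3 genes. Over the 9 overactive libraries without amphetamine library 1, Pearson's r of log2 CPM was 0.72 for Acy3 and Gstp2, 0.86 for Unc93b1 and Gstp2, and 0.70 for Acy3 and Unc93b1. Over the 10 control libraries the same pairs had r of 0.01, 0.35 and -0.06, where Gstp2 rests on 3 to 9 counts per library. These r values are descriptions over libraries that share their line and scaling, and they pool both treatments. In the overactive line without library 1, amphetamine minus saline was -0.66 (SE 0.27) for Gstp2, -0.22 (SE 0.17) for Unc93b1 and -0.06 (SE 0.21) for Acy3 (log2). The part of this treatment difference in r was not tested. Gstp1 and Gstp2 had r of 0.46 in the overactive and 0.19 in the control libraries.

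**Figure D3:**
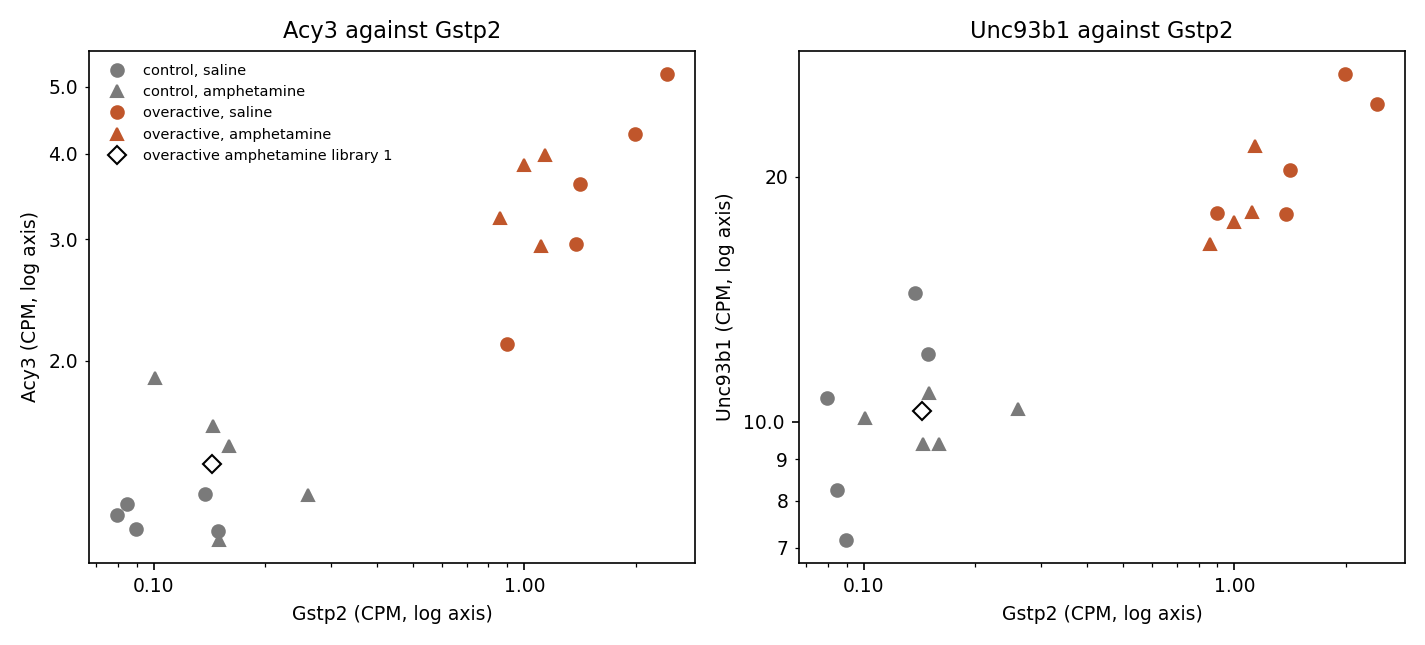
Acy3 (left) and Unc93b1 (right) against Gstp2, in CPM on log axes, with 1 point per library. Control line libraries lie at 0.261 CPM of Gstp2 or less and overactive ones at 0.857 CPM or more, apart from overactive amphetamine library 1 (open diamond), which lies among the control points.

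The loci most like Acy3 over all 20 libraries, by Pearson's r of log2 CPM, were Ppp2r5b (0.94, chromosome 19, 6226400 to 6236273), Gstp2 (0.93), Npm3-ps1 (0.90, chromosome 6), Tnfrsf8 (0.90, chromosome 4) and Unc93b1 (0.88). For Gstp2 they were Acy3 (0.93), Unc93b1 (0.93), Park2 (0.91), Npm3-ps1 (0.90) and Rbl1 (0.89, chromosome 2). Apart from overactive amphetamine library 1, which lies with the control line for Acy3 and Gstp2, the libraries fall into separate clusters by line. These values mostly rank how sharply a locus separates the lines with that library on the control side. Ppp2r5b, a regulatory subunit of protein phosphatase PP2A, kept r of 0.70 with Acy3 within the control and 0.73 within the overactive libraries. For Npm3-ps1, a pseudogene, they were 0.22 and 0.21. Npm3-ps1 measured 0.0205 CPM and Rbl1 2.50 CPM in overactive amphetamine library 1, near the control line means of 0.0263 and 2.49 CPM. Park2 (12.6 CPM) lay between the line means of 9.67 and 14.1 CPM, where the overactive mean leaves out that library. So did Ppp2r5b (154 CPM, means 145 and 174) and Tnfrsf8 (0.348 CPM, means 0.19 and 0.966). The r that picked these loci included that library, so nothing is read from its values here.

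The window from 3.9 to 4.3 Mb held 34 loci, of which 31 had a symbol and 26 were tested. Besides the 5 described, 1 of the 21 other tested loci was called between the lines in saline and 0 under amphetamine, against 1.11% and 0.453% of all loci called in either direction. Among the 21, 11 had a positive log2 line difference in saline and 14 under amphetamine. The locus called was Gm17552 (XLOC_016139, 4164225 to 4175479), with 2.79 ± 0.454 CPM in control saline and 5.56 ± 1.13 CPM in overactive saline (SD, n = 5), a log2 difference of 0.99 (SE 0.22, edgeR adjusted p = 0.0350). Its levels were 2.73 ± 0.640 and 4.71 ± 1.48 CPM under amphetamine (SD, n = 5).

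Gm17552 has the same span in the table as Carns1, the gene for carnosine synthase, which makes the dipeptide carnosine. Carns1 measured 10.6 ± 1.09 and 17.4 ± 3.01 CPM in saline (SD, n = 5), a log2 difference of 0.71 (SE 0.17, edgeR adjusted p = 0.0510), and is named after its values were seen. Whether the counting used strand is not given in the sources used here, so reads of the 2 loci cannot be told apart with certainty. Tbc1d10c (4184356 to 4191047), also named after its values were seen, had log2 differences of 0.51 (SE 0.19) in saline and 0.56 (SE 0.19) under amphetamine and did not pass (edgeR adjusted p = 0.162 and 0.221). In the other direction Rps6kb2 (4154473 to 4163712), a ribosomal protein S6 kinase gene named on the same terms, had -0.28 (SE 0.08, edgeR adjusted p = 0.0664) in saline and -0.13 (SE 0.08) under amphetamine. In overactive amphetamine library 1 Gm17552, Carns1 and Tbc1d10c measured 2.35, 9.09 and 1.47 CPM, under the 4.45 to 6.36, 13.4 to 18.6 and 2.41 to 3.25 CPM of the other 4 libraries of that group.

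Without that library, 6 of the 26 tested loci in the window (Unc93b1, Acy3, Gstp2, Gm17552, Carns1 and Tbc1d10c) had all 9 overactive libraries above all 10 control libraries. Of all 17206 loci 44 did (0.256%). Because 3 of the 6 were picked for their line difference, and the library left out is one that overlaps the control line here, nothing is read from this count. Without the 5 loci it was 3 of 21. Gstp1, which lies between Acy3 and Gstp2, was not among the 6.

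**Figure D4:**
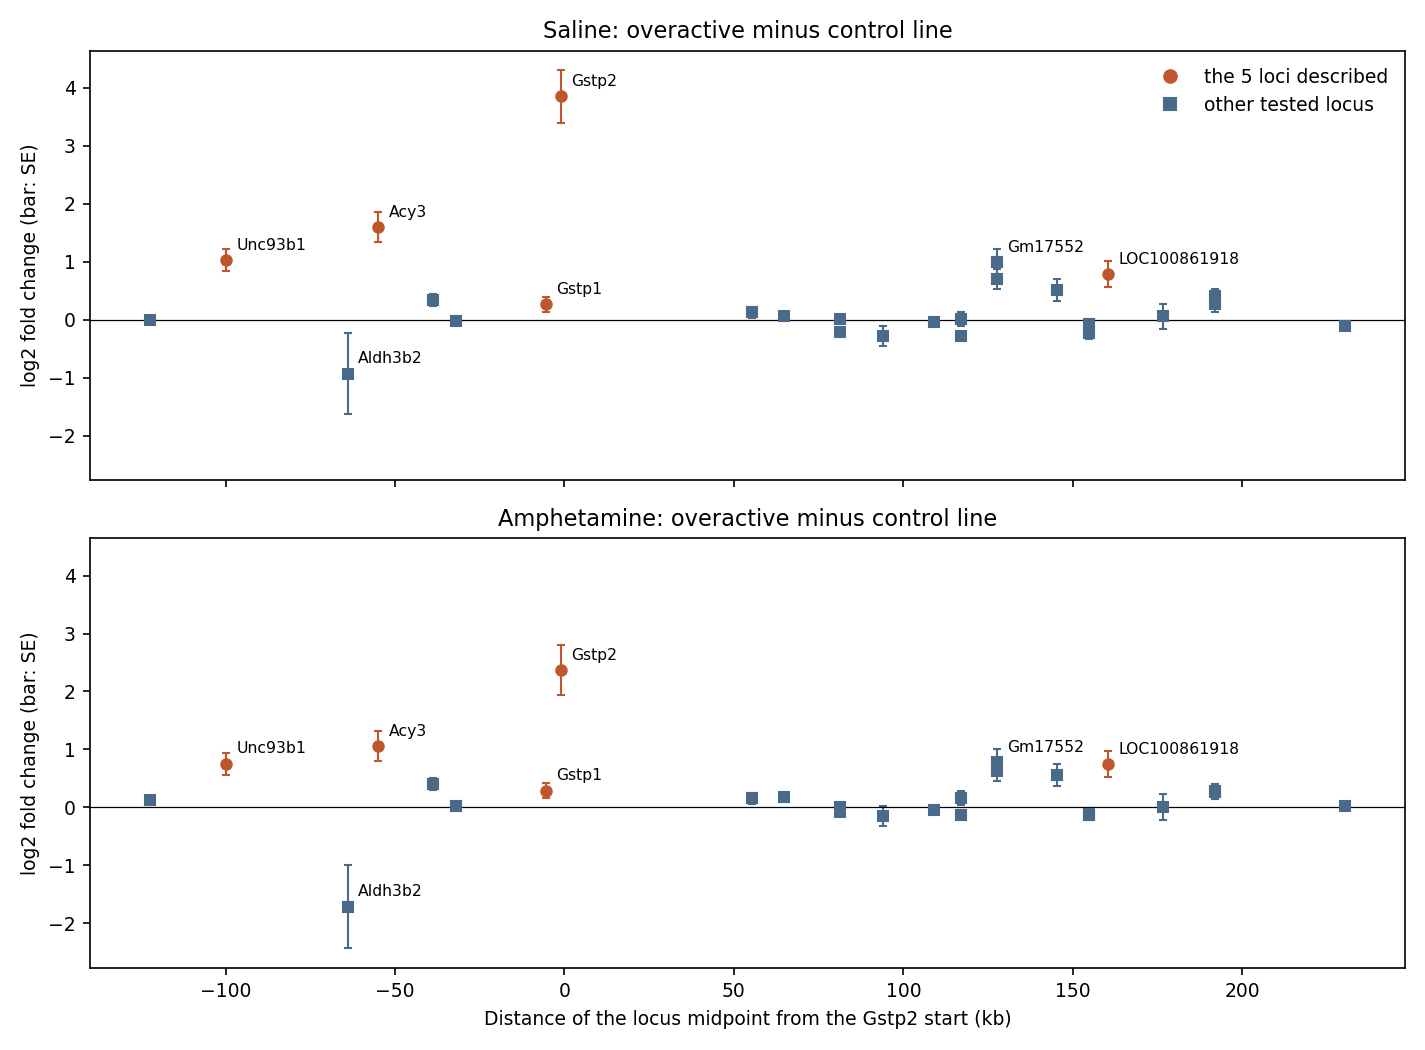
Log2 difference of the overactive from the control line (vertical axis, bars are SE) for the 26 tested loci of the window, in saline (top) and under amphetamine (bottom). The horizontal axis is the distance in kb of the locus midpoint from 4042221, the upper end of the Gstp2 locus. Circles are the 5 loci described and squares the other 21, most of which lie near 0.

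The loci next to the 5 were mostly level between the lines. Ndufv1, a subunit of respiratory complex I that lies between Acy3 and Gstp1, had log2 differences of -0.02 (SE 0.05) in saline and 0.03 (SE 0.05) under amphetamine. The shared locus of Aldh3b1 and Ndufs8 before Unc93b1 had -0.01 (SE 0.06) and 0.13 (SE 0.06). Cdk2ap2, after Gstp2, had 0.13 (SE 0.10) and 0.16 (SE 0.10). The shared locus of Doc2g and Nudt8, after Acy3, had 0.34 (SE 0.10) and 0.40 (SE 0.10), with edgeR adjusted p of 0.0966 and 0.0940. Around LOC100861918, Rad9 had -0.23 (SE 0.09) and -0.11 (SE 0.09), Ppp1ca -0.08 (SE 0.09) and -0.13 (SE 0.09), and Clcf1 0.06 (SE 0.22) and 0.01 (SE 0.22). None of these loci passed. BC021614, the locus after Gstp2 that overlaps the annotated Gstp3 gene, had 0 counts in all 20 libraries.

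Aldh3b2, an aldehyde dehydrogenase gene whose locus (3972327 to 3984182) ends just before that of Acy3, spread widely within the control line. Its control saline libraries measured 7.26, 5.46, 1.22, 9.20 and 0.503 CPM and its control amphetamine libraries 0.849, 0.831, 8.38, 5.78 and 12.3 CPM. The overactive saline libraries measured 3.20, 0.995, 2.43, 3.12 and 2.67 CPM and the overactive amphetamine libraries 0.798, 2.56, 2.18, 1.89 and 1.20 CPM. In the control line 4 libraries lay at 1.22 CPM or lower and 6 at 5.46 CPM or higher, with none between. The line difference was -0.93 (SE 0.70) in saline and -1.71 (SE 0.72) under amphetamine and did not pass (edgeR adjusted p = 0.532 and 0.333). Gstp1 separated the same libraries, as seen after the values were known and given without a test. The 4 control libraries low for Aldh3b2 measured 51.9 to 59.9 CPM of Gstp1 and the 6 high ones 32.0 to 46.3 CPM. The overlap of the lines for Gstp1 thus came from those 4 libraries, since the other 6 lay below every overactive library (47.3 CPM or more). For the other 4 described loci the sets overlapped: 9.40 to 14.4 and 7.17 to 10.7 CPM of Unc93b1, 1.10 to 1.502 and 1.14 to 1.89 of Acy3, 0.137 to 0.160 and 0.0795 to 0.261 of Gstp2, and 0.767 to 1.21 and 0.648 to 1.14 of LOC100861918.

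**Figure D5:**
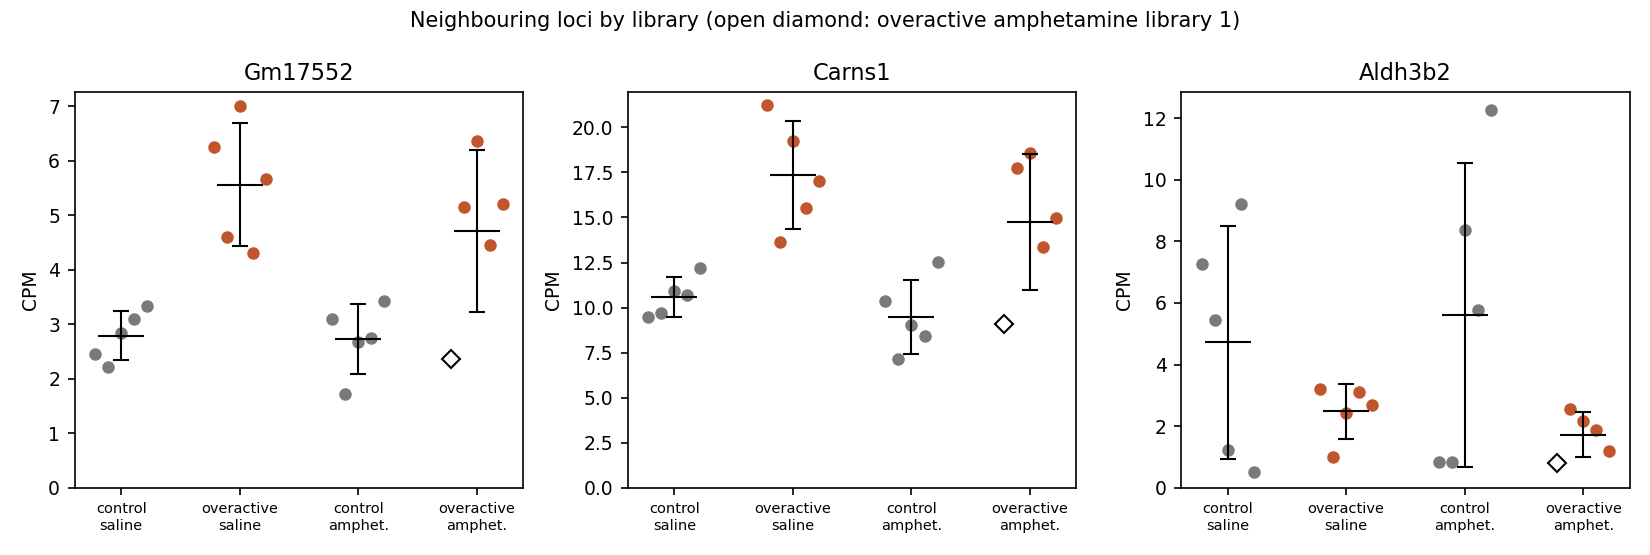
Level of Gm17552, Carns1 and Aldh3b2 in each library, in CPM on linear axes that start at 0, by group, with mean and SD (n = 5) and overactive amphetamine library 1 as an open diamond. Gm17552 and Carns1 are higher in the overactive line apart from that library, whereas control line libraries of Aldh3b2 fall into a low and a high set.

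Outside the window, calls on chromosome 19 are given beside the 1.11% of all loci called in saline and 0.453% under amphetamine. None of the 11 tested loci nearer the start of the chromosome was called in either line contrast. In the 10 Mb after the window 4 of 211 tested loci (1.90%) were called in saline and 1 (0.474%) under amphetamine, namely Naaladl1, Ppp2r5b, Map4k2 and the shared locus of Olfr1417 and Stx3, the last in both. Over chromosome 19, 12 of 585 tested loci (2.05%) were called in saline and 3 (0.513%) under amphetamine, the window included.

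Other genes of the glutathione route were described from lists written with earlier results of these data known. Over all loci 1.11% were called between the lines in saline (0.639% higher, 0.471% lower) and 0.453% under amphetamine (0.221% higher, 0.232% lower), so a count of 0 in a list of this size is near the background. Of 25 other glutathione S-transferase loci 0 were called in either line contrast or for amphetamine, with a median log2 line difference of 0.05 in saline and 0.07 under amphetamine. Their median for amphetamine against saline was -0.12, with 6 of 25 positive. The abundant mu-class genes Gstm1 and Gstm5 had line differences of -0.02 (SE 0.09) and -0.0006 (SE 0.07) in saline and of 0.05 (SE 0.09) and 0.01 (SE 0.07) under amphetamine. The alpha-class gene Gsta4 had 0.32 (SE 0.25) and 0.61 (SE 0.25). Of 28 loci for glutathione synthesis and reduction 1 was called higher in saline, Glo1, the glyoxalase that uses glutathione to clear methylglyoxal. It measured 134 ± 47.2 and 338 ± 29.6 CPM (SD, n = 5), a log2 difference of 1.34 (SE 0.18, edgeR adjusted p = 0.00135). Under amphetamine it had 0.65 (SE 0.18, adjusted p = 0.122). The median of that list was 0.04 in both treatments. Of 26 loci of NRF2 targets 0 were called, with medians of 0.01 and 0.04, and Nfe2l2, which encodes NRF2, had 0.03 (SE 0.08) and 0.13 (SE 0.08).

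Among aminoacylases and enzymes of mercapturic acid formation, 0 of 15 loci were called, also near the background, with medians of -0.05 in saline and 0.03 under amphetamine. Acy1, the aminoacylase for most aliphatic substrates, had log2 differences of -0.15 (SE 0.11) and -0.11 (SE 0.11). Aspa, the aminoacylase that splits N-acetylaspartate in oligodendrocytes, had 0.14 (SE 0.19) and 0.52 (SE 0.19).

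The receptors that Unc93b1 carries did not pass in either line contrast. Tlr3 (log2 -0.10, SE 0.16 in saline and 0.11, SE 0.16 under amphetamine), Tlr7 (0.10, SE 0.16 and 0.03, SE 0.16) and Tlr9 (-0.20, SE 0.19 and -0.38, SE 0.19) detect RNA or DNA in endosomes. Of 29 loci for these receptors, their processing and signalling, 1 was called lower in each contrast, against 0.471% and 0.232% of all loci. Myd88, the adaptor of most Toll-like receptors, was lower in the overactive line in saline (16.7 ± 2.61 and 10.5 ± 2.01 CPM, SD, n = 5, log2 -0.68, SE 0.14, edgeR adjusted p = 0.0246). Ctss, a microglial cathepsin that cuts these receptors, was lower under amphetamine (89.4 ± 8.19 and 61.7 ± 7.68 CPM, SD, n = 5, log2 -0.53, SE 0.11, edgeR adjusted p = 0.0405).

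Markers of cell types that the tissue could hold were measured beside these loci. Over all loci 0.639% were called higher and 0.471% lower in saline, and 0.221% and 0.232% under amphetamine. Summed over 16 microglial markers, levels were 563 to 718 CPM in control saline and 544 to 660 in overactive saline, and 586 to 691 and 536 to 610 under amphetamine, while Unc93b1 was higher in the overactive line. The median line difference of these markers was 0.01 in saline and -0.10 under amphetamine, with 0 called in saline and 1 lower under amphetamine (Ctss). Sums over 7 ependymal markers were 19.1 to 34.2 CPM in control saline and 31.3 to 55.8 in overactive saline. Their median line difference there was 1.005 and 1 was called higher (Ccdc153, log2 1.72, SE 0.42, edgeR adjusted p = 0.0496). Under amphetamine the ependymal sums were 14.6 to 32.9 and 16.4 to 54.1 CPM, and overactive library 1 had the 16.4. Over 11 cortical and hippocampal markers the median was -1.18 in saline, and sums were 1995 to 3235 and 1682 to 2541 CPM. Of these markers 1 was called lower there (Slc30a3, log2 -1.71, SE 0.41, edgeR adjusted p = 0.0486). Under amphetamine the median was -0.25 and the sums 2758 to 3393 and 2026 to 3696 CPM, where overactive library 1 had the 3696, the highest of all 20 libraries. Sums over 9 thalamic and septal markers were 124 to 219 and 181 to 461 CPM in saline, with a median of 0.68 and 0 called. The part of these marker levels in the line differences at the 5 loci was not tested.

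Astrocyte, oligodendrocyte and precursor markers had medians between 0.09 and 0.26 in both treatments, and none of their 12, 12 and 9 loci was called. The 13 striatal projection neuron loci had medians of -0.05 and -0.24 with 0 called, and 9 choroid plexus markers 0.60 and 0.78 with 0 called. Of 12 endothelial and mural markers 1 was higher under amphetamine (Rgs5, log2 0.85, SE 0.18, edgeR adjusted p = 0.0352), against 0.221% of all loci called higher. The medians of these markers were -0.10 and 0.24. The 10 meningeal markers had -0.28 and 0.27 with 0 called. None of these lists had a locus called for amphetamine against saline over both lines, where no locus of the genome was called by edgeR. Several marker medians still lay away from the median of all loci (-0.0058) in that contrast, at 0.94 for cortical and hippocampal (10 of 11 positive), -0.56 for choroid plexus (0 of 9 positive) and -0.28 for ependymal markers (0 of 7 positive). The part of these levels in the amphetamine values of the 5 loci was not tested.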

How the data were processed

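Striatal RNA of 20 mice was sequenced with paired ends, per the labels. The authors deposited 1 table of expected counts per locus, not scaled between libraries, of which 93.9% were whole within 0.01. The builds mm10 and GRCm38 are named, per the submitters' processing notes. The aligner and counting tool are not given in the sources used here. Loci without a symbol (10576, 0.65% of counts) were left out, and counts were rounded.

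One edgeR 4.0.16 quasi-likelihood model (R 4.3.3, TMM, filterByExpr, 1 mean per group) was fitted to 17206 loci in all 20 libraries. P-values were two-sided and Benjamini-Hochberg adjusted over all loci, with a threshold of 0.05. It was tested on simulated data. The median SE of log2 values was 0.11 per line contrast. The labels do not say whether mice shared litters or cages.

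The 5 loci and all lists were chosen with earlier results of these data known. Named genes were the 5 loci, neighbours that were called or next to them, up to 3 called genes per list, the 5 loci with the highest r for Acy3 and Gstp2, and 4 striatal markers; others are marked or give the level of a listed gene that was checked (Gstm1, Gstm5, Gsta4, Nfe2l2, Acy1, Aspa and Tlr3, Tlr7 and Tlr9). Log2 CPM for r used a prior count of 2. Sequences and spans came from GENCODE M21 and RefSeq.

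Alternatives were other scalings and filters, DESeq2 1.42.0, limma-voom (limma 3.58.1), loci without symbols kept, the groups compared alone, Gstp1 and Gstp2 summed, a replicate block and leaving out each library. Python 3.11.15 was used for descriptions.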

Additional observations from a re-analysis of the deposited data

Results flagged for a closer look

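Gstp2 in overactive amphetamine library 1 measured 0.143 CPM, far from the other 4 libraries of its group. The gap to the next library was 0.721 of the range of the group, past Dixon's 95% limit for 5 libraries. It was the 1 such case in 32 groups of 5 libraries checked, where chance alone gives about 1 in 20. Leaving it out moved the log2 line difference of Gstp2 under amphetamine from 2.37 to 2.64.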

How the results depend on the processing

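The line differences of the 5 loci kept their sign under every alternative run, and 428 of 436 values of single loci stayed within the spread between replicates or on the same side of the threshold. Many of these values could hardly move, such as line differences with a library of the other treatment left out. Amphetamine values counted as unchanged if they kept their sign and still did not pass. Little is therefore read from this count. The sum of Gstp1 and Gstp2 had log2 line differences of 0.30 in saline and 0.31 under amphetamine. That sum is mostly Gstp1, so these values are not estimates for Gstp2 alone. Acy3 for amphetamine against saline turned negative with limma-voom (-0.043, adjusted p = 0.945) and ran from -0.040 to 0.12 when single libraries were left out (negative without control amphetamine 4, overactive amphetamine 2 or 3, or overactive saline 2 or 4). It passed under none of them. Counts of loci called depended more on the processing, and the cause was not tested. In saline 191 loci became 288 with loci without a symbol kept, 776 with DESeq2, 297 with limma-voom, and 67 to 240 when single libraries were left out. The count moved by over 1.5 times without control saline 1 (124), 2 (115), 3 (101) or 5 (67) or overactive saline 3 (100) or 4 (75). Under amphetamine 78 loci became 135 with loci without a symbol kept, 50 with the groups compared alone, 323 with DESeq2, and 23 to 88 when single libraries were left out, with the lowest values without control amphetamine 3 (35), 4 (43) or 5 (38) or overactive amphetamine 2 (23). For amphetamine against saline 0 became 178 with DESeq2 and 0 to 4 when single libraries were left out (4 without control saline 1 or overactive amphetamine 2).

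With the replicate number as a block 187, 51 and 0 loci were called in saline, under amphetamine and for amphetamine against saline. The labels share only a number: correlations of same-numbered libraries' deviations ran from -0.232 to 0.247, and 10 of 30 exceeded 0.1. Depth limits Gstp2 in the control line, which rests on 3 to 9 counts per library.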

Other observations

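Besides Gstp1, a further locus of the window was read beside the split of Aldh3b2 in the control line, as a description chosen after the values were seen. 1700055N04Rik (XLOC_016127, 3958807 to 3970438), the locus before Aldh3b2, was too low to test. It had 0 to 1 counts in the 4 control libraries low for Aldh3b2 and 1 to 10 counts in the 6 that were high, so the sets met at 1 count. The labels give no allele, litter or batch that divides the control libraries.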
